A study of Mus musculus with 4 samples.

Results

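The NADPH oxidase subunit genes considered here are Nox4, Nox1, Cyba, Ncf1, Ncf4 and Rac2, and every probe set that the platform annotation assigns to 1 of them alone was taken. This gave 9 of the 45101 probe sets on the array, for 5 of the 6 genes: 2 for Nox4, 1 for Cyba, 3 for Ncf1, 1 for Ncf4 and 2 for Rac2. No probe set carries the symbol Nox1 in the annotation used, so Nox1 was not analysed here.

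NADPH oxidases move electrons from NADPH across a membrane to oxygen and so make superoxide or hydrogen peroxide. Nox4, the catalytic subunit most abundant in kidney tubules, is active without cytosolic activators and releases mainly hydrogen peroxide, and it needs the membrane partner p22phox, the product of Cyba. The phagocyte enzyme pairs p22phox with the catalytic subunit encoded by Cybb, and it is switched on when the cytosolic proteins p47phox (Ncf1) and p40phox (Ncf4) and the GTPase Rac2, among others, join it at the membrane. Nox1 is the catalytic subunit best known from colon epithelium and vascular smooth muscle.

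Kidney RNA of female mice on the FVB/NJ background was measured on 4 arrays, 1 per group, each with RNA pooled from 4 mice. The groups were OVE26 transgenic diabetic mice after uninephrectomy (OVE-uni), OVE26 transgenic diabetic mice after sham surgery (OVE-sham), nondiabetic control littermates after uninephrectomy (FVB-uni) and nondiabetic control littermates after sham surgery (FVB-sham). OVE26 mice are a model of early beta cell failure, through a calmodulin transgene expressed in pancreatic beta cells. Surgery, in which uninephrectomy removes 1 kidney, was done at 2 months of age, and kidneys were taken at 4.5 months, 10 weeks later, after perfusion with saline. The animals of a group share 1 array, so no value below measures the spread between mice, and every difference between 2 groups rests on 2 arrays. In whole kidney RNA, fewer cells of a type and less RNA per cell cannot be told apart.

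The deposited values are linear intensities scaled to a common level, with a median over all probe sets between 106.8 and 119.3 on the 4 arrays. Differences are given on the log2(intensity + 26.4) scale, where the offset is the 20th percentile of all values, and a probe set counts as expressed when its mean on this scale reaches the median over all probe sets, 7.06. Of the 9 member probe sets 5 passed this filter, among 19342 named probe sets that did: both of Nox4, the one of Cyba, 1 of Ncf1 and 1 of Rac2. The offset shrinks the differences of dim probe sets. The arrays matched the labelled tissue, as all 19 proximal tubule markers with a probe set and all 6 podocyte markers with one were expressed. Proximal tubule markers had summed signals of 253222 in OVE-uni, 321155 in OVE-sham, 343882 in FVB-uni and 323803 in FVB-sham.

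Sequences upstream of the start site are shown for Nox4, Cyba and Ncf1, the 3 measured members with an entry in the promoter table used. Windows of Ncf4 and Rac2 were not used here. Each window runs from 250 bases before to 50 bases after the start of the gene in RefSeq, on build GRCm38.p6, and comes from C57BL/6J, not from FVB/NJ. Capitals mark matches, on either strand, to the GC box letters GGGCGG, the only one of 3 motifs searched that these windows contain.
Nox4, chr7:87246399-87246698, plus strand: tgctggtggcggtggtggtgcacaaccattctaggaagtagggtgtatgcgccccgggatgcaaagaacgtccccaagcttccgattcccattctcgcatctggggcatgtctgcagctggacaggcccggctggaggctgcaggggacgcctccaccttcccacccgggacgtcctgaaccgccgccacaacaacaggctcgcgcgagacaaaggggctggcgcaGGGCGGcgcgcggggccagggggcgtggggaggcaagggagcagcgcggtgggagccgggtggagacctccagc
Cyba, chr8:122432891-122433190, minus strand: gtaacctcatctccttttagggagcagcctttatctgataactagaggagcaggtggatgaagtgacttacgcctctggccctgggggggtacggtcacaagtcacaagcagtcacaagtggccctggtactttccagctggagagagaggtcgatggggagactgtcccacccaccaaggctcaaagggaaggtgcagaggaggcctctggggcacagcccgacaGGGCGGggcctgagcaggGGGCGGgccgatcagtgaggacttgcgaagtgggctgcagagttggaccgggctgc
Ncf1, chr5:134229576-134229875, minus strand: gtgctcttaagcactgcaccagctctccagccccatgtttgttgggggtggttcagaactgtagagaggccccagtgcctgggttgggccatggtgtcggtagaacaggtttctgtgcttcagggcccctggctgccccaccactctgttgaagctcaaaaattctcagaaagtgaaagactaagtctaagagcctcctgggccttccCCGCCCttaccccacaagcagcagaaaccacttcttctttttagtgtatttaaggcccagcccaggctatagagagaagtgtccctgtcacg
The GC box occurred 1 time in the Nox4 window, 2 times in the Cyba window and 1 time in the Ncf1 window, where it lies on the opposite strand, and in 35.7% of 32851 windows of the same length. The letters GAGGAA, an ETS family core such as that of the myeloid factor PU.1, occur in 28.3% of windows and TATAAA in 13.6%. Neither was found in the 3 windows, which says nothing of the factors. The Nox4 window held 24 CpG dinucleotides and 68.3% G and C, the Cyba window 9 and 60.7%, and the Ncf1 window 3 and 54.0%, against a median of 7 CpG over all windows. The Nox1 window held 1 match to GAGGAA. Matches are descriptions of letters, and binding was not measured.

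Nox4 had lower signals on both diabetic arrays. Its probe set 1451827_a_at read 16143.4 in OVE-uni and 18579.3 in OVE-sham, against 23782.8 in FVB-uni and 22737.3 in FVB-sham. The second probe set, 1419161_a_at, read 5958.9 in OVE-uni and 5592.9 in OVE-sham, against 8332.1 in FVB-uni and 8792.9 in FVB-sham. Both diabetic arrays therefore lay below both nondiabetic arrays in each probe set, with no overlap, and all 8 signals were far above the array medians. As ratios of intensity, OVE-sham over FVB-sham was 0.82 and 0.64 in these probe sets, and OVE-uni over FVB-uni was 0.68 and 0.72. The log2 differences were -0.29 and -0.65 in sham mice and -0.56 and -0.48 in uninephrectomised mice. These 2 arms share no array, although both probe sets read the same RNA and are not replicates of each other.

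**Figure D1:**
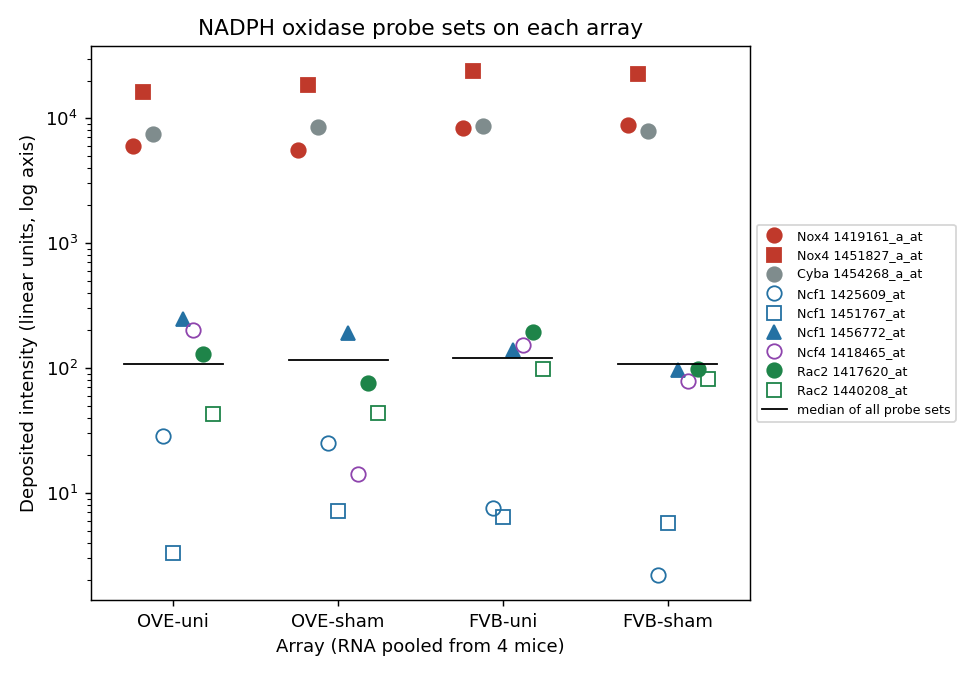
Deposited intensity (log axis) of the 9 member probe sets on each array, with 1 point per array, filled where the probe set is expressed, open where it is below the filter, and a black line at the median of all probe sets. Nox4 and Cyba lie at 5592.9 or above on all arrays, with Nox4 lower on the 2 diabetic arrays, while the points of Ncf1, Ncf4 and Rac2 lie at or below 246.8.

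An additive limma fit over the 4 arrays, with diabetes and surgery as 2 terms, was used to set these differences against the scatter of all 19342 probe sets. It treats the 2 arms of a factor as repeats of each other. The mean difference of Nox4 with diabetes was -0.57 ± 0.15 (limma SE) for 1419161_a_at, with a 95% interval of -0.90 to -0.24, and -0.42 ± 0.18 for 1451827_a_at, with an interval of -0.81 to -0.04. After Benjamini-Hochberg adjustment neither passed (limma adjusted p = 0.178 and 0.551). This call depended on the scaling: with quantile normalisation the differences were -0.58 and -0.44 and both passed (limma adjusted p = 0.00232 and 0.0153), and with the filter at the 75th percentile the first passed alone (limma adjusted p = 0.0192 and 0.436). Over all settings the adjusted p ranged up to 0.596 and 0.868, while the size of the difference moved little.

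Of the 5 expressed member probe sets 0 passed limma for diabetes, against 0.321% of all expressed probe sets, and 3 had an unadjusted p below 0.05 (both of Nox4 and that of Ncf1), against 7.85%. Complete separation of diabetic from nondiabetic arrays was common: 19.5% of expressed probe sets lay lower on both diabetic arrays than on both nondiabetic ones, as did the 2 of Nox4. Another 17.6% lay higher on both diabetic arrays, as did the 1 expressed probe set of Ncf1.

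Other measures of the same arrays are given beside Nox4. The 18S ribosomal RNA controls (3 probe sets, geometric mean) read 21341 in OVE-uni and 14962 in OVE-sham, against 11554 in FVB-uni and 11337 in FVB-sham, so it was higher on both diabetic arrays; its part in the Nox4 result was not tested. The 19 proximal tubule markers had a median log2 difference of 0.08 for OVE-sham over FVB-sham, where Nox4 was at -0.29 and -0.65. The markers were mixed in this pair, with 12 of 19 higher in OVE-sham. For OVE-uni over FVB-uni their median was -0.40, close to the -0.56 and -0.48 of Nox4, and 18 of 19 had lower signals in OVE-uni. Among them Kap (1415969_s_at) was lower in both arms, at -0.58 in sham and -0.80 in uninephrectomised mice. With diabetes 0 of these 19 markers passed limma, and 2 had an unadjusted p below 0.05, against 7.85% of all expressed probe sets. The 4 expressed adipocyte markers had a median difference of 0.75 for OVE-sham over FVB-sham and 1.27 for OVE-uni over FVB-uni. Of them 2 passed limma with diabetes, higher in OVE, against 0.321% of all expressed probe sets. The part of these markers in the Nox4 result was not tested.

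Surgery left little trace in Nox4. FVB-uni over FVB-sham differed by 0.06 for 1451827_a_at and by -0.08 for 1419161_a_at, and OVE-uni over OVE-sham by -0.20 and 0.09. The mean difference with uninephrectomy was -0.07 ± 0.18 (limma SE, 95% interval -0.45 to 0.31) and 0.01 ± 0.15 (-0.32 to 0.34), and the sign of the second turned to -0.02 with quantile normalisation or median centring. Changes of up to 0.45 on the log2 scale thus lie inside these intervals.

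Cyba, which encodes the membrane partner of both the tubular and the phagocyte oxidase, stayed within a narrow range. Its signals were 7407.1 in OVE-uni and 8539.9 in OVE-sham, against 8593.6 in FVB-uni and 7871.4 in FVB-sham. The diabetic and nondiabetic arrays overlap, and so do the uninephrectomy and sham arrays. OVE-sham over FVB-sham was 0.12 and OVE-uni over FVB-uni was -0.21, with a mean of -0.05 ± 0.16 (limma SE, 95% interval -0.39 to 0.30, adjusted p = 0.992). With uninephrectomy the mean was -0.04 ± 0.16 (limma SE, adjusted p = 1). The higher signals were on OVE-sham and FVB-uni, the arrays on which the hybridisation spike-in BioC was also higher, at 4061 and 3964, against 2982 in OVE-uni and 3434 in FVB-sham; the part of this in the Cyba values was not tested.

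Ncf1, which encodes the organiser p47phox of the phagocyte oxidase, went the other way from Nox4 with diabetes. Its expressed probe set 1456772_at read 246.8 in OVE-uni and 192.2 in OVE-sham, against 138.5 in FVB-uni and 97.1 in FVB-sham. Both diabetic arrays lay above both nondiabetic arrays, and within each of these pairs the uninephrectomy array was the higher one. On the log2 scale OVE-sham over FVB-sham was 0.82 and OVE-uni over FVB-uni was 0.73. Their mean of 0.78 ± 0.29 (limma SE, 95% interval 0.16 to 1.39) did not pass after adjustment (limma adjusted p = 0.427, lowest over the settings tried 0.252). With uninephrectomy the mean was 0.37 ± 0.29 (limma SE, 95% interval -0.24 to 0.98, adjusted p = 1).

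The other Ncf1 probe sets were dim. Probe set 1425609_at read 28.3 in OVE-uni and 25.1 in OVE-sham, against 7.6 in FVB-uni and 2.2 in FVB-sham, the same direction at signals near or below the 20th percentile of the arrays (23.3 to 30.1). Probe set 1451767_at read 3.3 in OVE-uni and 7.2 in OVE-sham, against 6.4 in FVB-uni and 5.7 in FVB-sham, and its arrays overlap. The 3 probe sets thus do not repeat one another, and the Ncf1 difference rests on 1456772_at.

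Rac2, the GTPase of blood cell lineages that activates the phagocyte oxidase, had 2 probe sets with different patterns. Its expressed probe set 1417620_at read 129.5 in OVE-uni and 195.6 in FVB-uni, against 75.4 in OVE-sham and 97.4 in FVB-sham. Both uninephrectomy arrays lay above both sham arrays, as they did for 13.7% of expressed probe sets. OVE-uni over OVE-sham was 0.61 and FVB-uni over FVB-sham was 0.84, with a mean of 0.73 ± 0.31 (limma SE, 95% interval 0.06 to 1.40, adjusted p = 0.958). With diabetes the 2 arms were -0.28 in sham and -0.51 in uninephrectomised mice, with a mean of -0.40 ± 0.31 (limma SE, 95% interval -1.07 to 0.28, adjusted p = 0.903), and the arrays overlapped.

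The second Rac2 probe set, 1440208_at, lay below the filter and read 43.1 in OVE-uni and 43.6 in OVE-sham, against 97.9 in FVB-uni and 82.0 in FVB-sham. It shared the lower diabetic values with the first probe set, without overlap here, as in 19.5% of expressed probe sets. That share was not counted among dim probe sets. Its surgery differences, however, were -0.01 in diabetic and 0.20 in nondiabetic mice. The higher values of Rac2 after uninephrectomy therefore rest on 1417620_at. For uninephrectomy 0 of the 5 expressed member probe sets passed limma, against 0.0827% of all expressed probe sets, and 1 (Rac2) had an unadjusted p below 0.05, against 4.79%.

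Ncf4, which encodes p40phox, a phosphoinositide-binding subunit of the phagocyte oxidase, had 1 probe set, 1418465_at, just under the filter with a mean log2 value of 6.84. Its signals were 201.0 in OVE-uni and 14.2 in OVE-sham, against 152.0 in FVB-uni and 78.3 in FVB-sham. The OVE-sham signal was the lowest and lay below the 20th percentile of its own array, 29.8. Both uninephrectomy arrays lay above both sham arrays, as they did for 13.7% of expressed probe sets. That share was not counted among dim probe sets. OVE-uni over OVE-sham was 2.49 and FVB-uni over FVB-sham was 0.77. In a limma fit without the filter, over 34945 probe sets, the mean difference with uninephrectomy was 1.63 ± 0.50 (limma SE, unadjusted p = 0.00972, adjusted p = 1), and the mean became 2.34 when the offset was 1 and 1.12 when it was 72.5, the 40th percentile. Of those 34945 probe sets 1493 had an unadjusted p below 0.05 for uninephrectomy in limma. With diabetes Ncf4 went opposite ways, by -1.37 in sham and 0.35 in uninephrectomised mice.

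**Figure D2:**
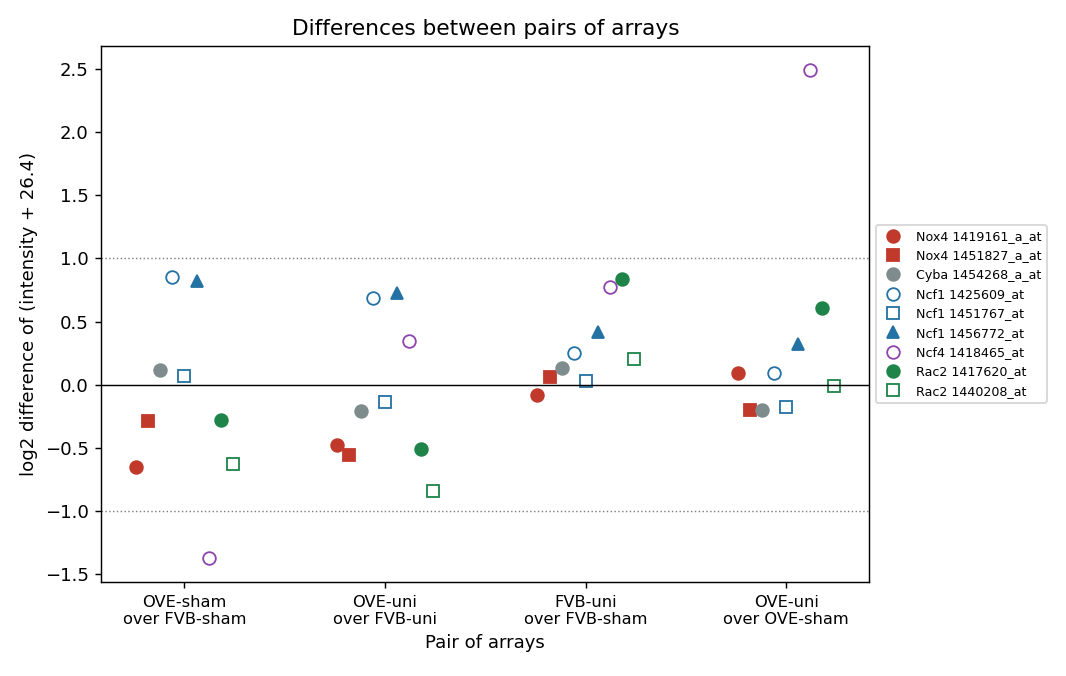
Log2 difference of (intensity + 26.4) for the 9 member probe sets in the 4 pairs of arrays, with 1 point per probe set, filled where expressed and open where below the filter, and dotted lines at 2-fold. Nox4 lies below 0 and Ncf1 1456772_at above 0 in both diabetes pairs, and only Ncf4 passes a dotted line.

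On the log2(intensity + 26.4) scale no expressed member probe set differed by 2-fold or more in any pair of arrays. The share of all expressed probe sets that did, in either direction, was 1.29% for OVE-sham over FVB-sham, 2.77% for OVE-uni over FVB-uni, 1.38% for FVB-uni over FVB-sham and 1.91% for OVE-uni over OVE-sham. As a ratio of plain intensities, with no offset, Rac2 1417620_at reached 2.01 for FVB-uni over FVB-sham. Among the 4 dim member probe sets Ncf4 passed 2-fold in 2 of the pairs, OVE-sham over FVB-sham and OVE-uni over OVE-sham. Without the filter 7.53% and 8.22% of all named probe sets did so in these pairs.

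The tubular subunit was then set against the phagocyte subunits by subtracting their log2 differences, since signals of different probe sets cannot be compared as levels. Nox4 minus Ncf1 (1456772_at) was -1.11 and -1.47 for OVE-sham over FVB-sham with the 2 Nox4 probe sets, and -1.29 and -1.21 for OVE-uni over FVB-uni, so the pair moved apart by more than 2-fold in both arms. Nox4 minus Cyba was -0.41 and -0.77 in sham and -0.34 and -0.27 in uninephrectomised mice. Nox4 minus Rac2 (1417620_at) was -0.01 and -0.37 in sham and -0.05 and 0.03 in uninephrectomised mice. Rac2 was thus close to Nox4 1451827_a_at in both arms, and to Nox4 1419161_a_at in uninephrectomised mice only. Nox4 minus Ncf4 changed sign, at 1.08 and 0.72 in sham and -0.91 and -0.83 in uninephrectomised mice.

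The phagocyte subunits did not share 1 direction with diabetes: the expressed Ncf1 probe set had positive differences in both arms, both Rac2 probe sets negative ones in both, and Ncf4 one of each. Of the dim Ncf1 probe sets 1425609_at was positive in both arms (0.85 in sham and 0.69 in uninephrectomised mice), and 1451767_at was at 0.07 and -0.14. With surgery the expressed Ncf1 and Rac2 probe sets and that of Ncf4 had positive differences in both arms, between 0.32 and 2.49, whereas Nox4 lay between -0.20 and 0.09. The other dim probe sets were nearer to 0: FVB-uni over FVB-sham was 0.20 for Rac2 1440208_at, 0.03 for Ncf1 1451767_at and 0.25 for Ncf1 1425609_at, and OVE-uni over OVE-sham was -0.01, -0.18 and 0.09. Surgery differences of Nox4 minus Rac2 (1417620_at) were -0.78 and -0.92 in nondiabetic and -0.82 and -0.52 in diabetic mice. These contrasts between genes are given as values and were not tested.

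**Figure D3:**
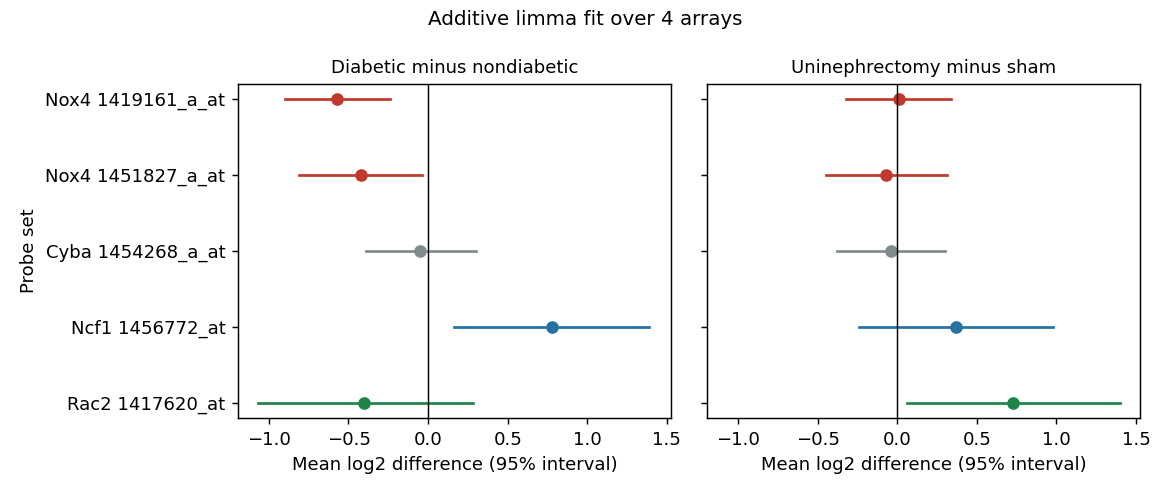
Mean log2 difference with diabetes (left) and with uninephrectomy (right) from the additive limma fit for the 5 expressed member probe sets, with lines for 95% intervals. The intervals of both Nox4 probe sets and of Ncf1 exclude 0 for diabetes, from below and above, and that of Rac2 excludes 0 for uninephrectomy, before adjustment over all probe sets.

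Markers of the cells that carry the phagocyte oxidase were read on the same arrays. Of 18 macrophage and monocyte markers all 18 had a probe set and 15 were expressed, and their summed signal was 20996 in OVE-uni and 11258 in OVE-sham, against 10790 in FVB-uni and 11795 in FVB-sham. A sum is set mostly by its brightest genes, which in OVE-uni were Csf1r and Lyz2. Csf1r (1419872_at) read 5181.9 in OVE-uni and 5928.5 in OVE-sham, against 5092.9 in FVB-uni and 6557.7 in FVB-sham. Lyz2 read 5042.8 in OVE-uni and 1010.8 in OVE-sham, against 634.8 in FVB-uni and 726.8 in FVB-sham. In 13 of the 15 expressed markers the OVE-uni array was highest, as it was in 26.0% of all expressed probe sets. In limma 0 of the 15 passed for either factor. At an unadjusted p below 0.05 there were 5 for diabetes and 9 for uninephrectomy, against 7.85% and 4.79% of all expressed probe sets. The additive fit has no term for a rise in OVE-uni alone, and counts part of such a rise as scatter. Their median difference was 0.75 for OVE-uni over FVB-uni, 1.22 for OVE-uni over OVE-sham and 0.28 for FVB-uni over FVB-sham, and -0.03 for OVE-sham over FVB-sham. The Ncf1 difference of 0.82 in sham mice thus stood beside a macrophage median of -0.03. With surgery the expressed markers were mixed in nondiabetic mice, with 9 of 15 higher in FVB-uni than in FVB-sham, while 13 of 15 were higher in OVE-uni than in OVE-sham. The scavenger receptor gene Cd163, below the filter, read 58.2 in OVE-uni and 58.6 in FVB-uni, against 2.7 in OVE-sham and 5.1 in FVB-sham. Its surgery differences were 1.54 in diabetic and 1.43 in nondiabetic mice, from sham signals below the offset. The part of these cells in the values of Ncf1, Ncf4 and Rac2 was not tested.

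Neutrophil markers were near the bottom of the signal range. Of 14 such markers 12 had a probe set and 0 were expressed, and their summed signal was 664 in OVE-uni and 728 in OVE-sham, against 881 in FVB-uni and 619 in FVB-sham. The neutrophil protein gene S100a9 read 8.0 in OVE-uni and 46.1 in OVE-sham, against 21.9 in FVB-uni and 43.7 in FVB-sham. Its surgery differences were -1.08 in diabetic and -0.54 in nondiabetic mice. Other dim markers of this list went the other way, with S100a8 at 0.15 and 0.26 and Csf3r at 0.97 and 1.05. Of 16 markers of all leukocytes and of lymphocytes 14 had a probe set and 5 were expressed, with a median difference of 1.05 for OVE-uni over OVE-sham and -0.01 for OVE-sham over FVB-sham.

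**Figure D4:**
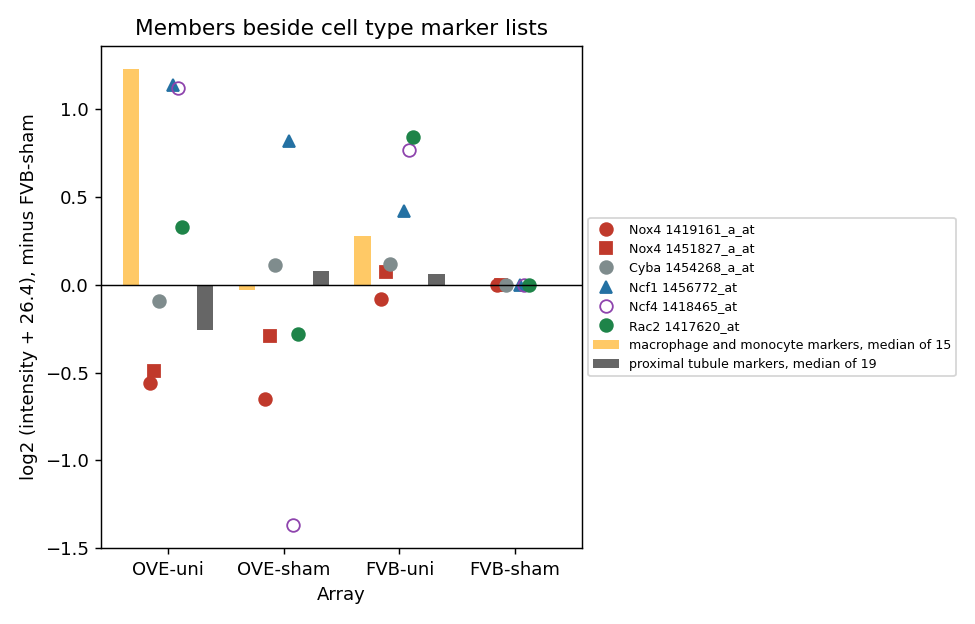
Log2(intensity + 26.4) minus the FVB-sham value on each array for the expressed member probe sets and Ncf4 (open), beside bars for the median of 15 macrophage and monocyte markers and of 19 proximal tubule markers. The macrophage median reaches 1.23 in OVE-uni and is -0.03 in OVE-sham, where Ncf1 is at 0.82 and both Nox4 probe sets are below 0.

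The other genes of the NADPH oxidase family and its helpers formed a list of 15, of which 12 had a probe set and 8 were expressed. None passed limma for diabetes or for uninephrectomy, with 1 and 0 at an unadjusted p below 0.05, against 7.85% and 4.79% of all expressed probe sets. Their median log2 difference was 0.14 for OVE-sham over FVB-sham and 0.21 for OVE-uni over FVB-uni, against -0.01 over all expressed probe sets in each, and 8 and 6 of the 8 were higher. With uninephrectomy their median was -0.12 in nondiabetic and -0.06 in diabetic mice.

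Cybb, the phagocyte catalytic subunit, read 386.5 in OVE-uni and 207.9 in OVE-sham, against 149.2 in FVB-uni and 167.6 in FVB-sham, with its expressed probe set 1436778_at. Its diabetic arrays lay above the nondiabetic ones, with log2 differences of 1.23 in uninephrectomised and 0.27 in sham mice and a limma adjusted p of 0.469. Both other Cybb probe sets were below the filter. Probe set 1422978_at differed with diabetes by 0.46 in sham and 0.48 in uninephrectomised mice, with overlapping arrays. With surgery it differed by 1.21 in nondiabetic and 1.23 in diabetic mice, from sham signals of 15.6 and 31.4. The expressed probe set 1436778_at differed with surgery by -0.14 in nondiabetic and 0.82 in diabetic mice, and 1436779_at by 0.16 and -0.47. Probe set 1436779_at differed with diabetes by 0.67 in sham and 0.03 in uninephrectomised mice. Cybc1, the chaperone of the Cybb and Cyba dimer, read 448.5 in OVE-uni and 454.1 in OVE-sham, against 334.3 in FVB-uni and 413.3 in FVB-sham. Rac1, the widely expressed relative of Rac2, read 4775.2 in OVE-uni and 5166.7 in OVE-sham, against 4552.7 in FVB-uni and 4906.1 in FVB-sham, so its log2 difference with diabetes was 0.07 in both arms of probe set 1451086_s_at. Poldip2, which encodes a protein that binds p22phox and raises Nox4 activity, differed by 0.16 in sham and 0.04 in uninephrectomised mice with probe set 1422732_at. Its other expressed probe set, 1450727_a_at, differed by -0.01 and 0.01. Noxo1, the organiser used by Nox1, and Duox1, Duoxa1 and Duoxa2 of the dual oxidases were all below the filter.

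The genes with the most similar pattern were found as the smallest distances between log2 values centred over the 4 arrays, among 11196 other expressed genes. For Nox4 (1451827_a_at) these were Dennd11 (distance 0.038), Paip2b (0.039) and Slc6a20b (0.048), an amino acid transporter gene. Slc6a20b read 3894.5 in OVE-uni and 4609.5 in OVE-sham, against 5916.1 in FVB-uni and 5755.1 in FVB-sham. For Cyba they were Trmt112, Kdm5c and Pax8, at distances of 0.008 to 0.011. For Ncf1 they were Niban1 (0.095), Flt4 (0.115) and Lig1 (0.125), and for Rac2 Rbmx2 (0.073), Olfml2b (0.115) and Slpi (0.171). With 4 arrays and this many genes, close matches are found for any pattern.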

How the data were processed

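Total RNA from frozen kidney was pooled from 4 mice per group, and 100 ng was labelled with biotin, per the labels' protocols. The authors deposited 1 linear intensity per probe set, already summarised. No source used here names the software or the background step. The mean without the highest and lowest 2% of the deposited intensities was 500.003 on each array. The number of arrays limits the precision.

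The platform annotation gave 1 gene symbol for 34945 probe sets, several for 932 and none for 9160, besides 64 controls. Symbols were looked up by Entrez number in a RefSeq table of GRCm38.p6, which held 34741 and changed 0. Values were set on the log2(intensity + 26.4) scale without further normalisation. An additive limma model (version 3.58.1, under R 4.3.3) was fitted to 19342 expressed probe sets, with a variance trend, 1 residual and 13.6 prior degrees of freedom, with Benjamini-Hochberg adjustment and a threshold of 0.05. The step was tested on simulated data. From each gene list, genes passing limma or the 4 with the largest differences could be named, and other genes named were chosen after their values were seen. The 3 genes nearest each expressed member were named too. Members and lists were chosen with earlier results of these data known. Alternatives were quantile normalisation, median centring, other filters and offsets, 1 probe set per gene and limma without a trend.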

Additional observations from a re-analysis of the deposited data

Results flagged for a closer look

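Ncf4 (1418465_at) had diabetes differences of opposite sign in the 2 arms, 0.35 in uninephrectomised and -1.37 in sham mice, which differ by 1.72 on the log2 scale. The difference was not tested, as each arm is 1 pair of arrays. It rests on the OVE-sham signal of 14.2, and it became 2.78 when the offset was 1 and 1.08 when it was 72.5, the 40th percentile.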

How the results depend on the processing

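The number of probe sets called by limma over the whole array depended on the settings, and the cause was not tested. The 62 calls with diabetes and 16 with uninephrectomy became 426 and 160 with quantile normalisation, 160 and 31 with median centring, 271 and 112 with the filter at the 75th percentile, 250 and 58 with 1 probe set per gene, and 0 and 3 without the filter. Without a variance trend both were 0, although 1403 and 928 probe sets had an unadjusted p below 0.05 in limma. With the 40th percentile as offset diabetes gave 104. Counts at 2-fold are given in the order OVE-sham over FVB-sham, OVE-uni over FVB-uni, FVB-uni over FVB-sham and OVE-uni over OVE-sham. They were 249, 535, 267 and 370 as reported, 2632, 3075, 2620 and 2873 without the filter, 46, 155, 37 and 89 with the stricter filter, 138, 355, 132 and 240 with 1 probe set per gene, and 118, 343, 111 and 214 with the larger offset. An offset of 1 gave 416 in the first and 405 in the third. The share of higher among these was 54.6%, 63.0%, 53.2% and 64.9%, and with median centring 36.9%, 79.3%, 28.4% and 76.2%. Centring shifts arrays by up to 0.13 against each other. Among members, the surgery difference of Nox4 1419161_a_at turned to -0.02 with quantile normalisation and with median centring, and diabetes calls of Nox4 appeared in 2 settings for 1419161_a_at and 1 for 1451827_a_at. No other member call changed in any setting that tested the probe set. Depth is not defined for arrays. Signals near or below the 20th percentile limit the dim Ncf1 probe sets and the OVE-sham value of Ncf4.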

Other observations

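Enzymes that remove superoxide and peroxides, the products of these oxidases, were read from a list of 16 genes, of which 13 had a probe set and all 13 were expressed. None passed limma for diabetes or uninephrectomy, against 0.321% and 0.0827% of all expressed probe sets. At an unadjusted p below 0.05 there were 0 for diabetes and 1 for uninephrectomy, against 7.85% and 4.79%. Their median log2 difference was 0.18 for OVE-sham over FVB-sham, with 11 of 13 higher, and -0.09 for OVE-uni over FVB-uni, with 4 of 13 higher. Catalase (Cat), which breaks down hydrogen peroxide, read 16574.5 in OVE-uni and 18317.1 in OVE-sham, against 22944.5 in FVB-uni and 18489.7 in FVB-sham. Extracellular superoxide dismutase (Sod3) read 605.0 in OVE-uni and 596.3 in OVE-sham, against 488.2 in FVB-uni and 718.0 in FVB-sham. Summed over the 13 genes, signals were 165628 in OVE-uni and 168684 in FVB-sham, and 196076 in OVE-sham and 199031 in FVB-uni. This is the same split of the arrays as that of Cyba and of the spike-in BioC. A sum is set mostly by its brightest genes. Counted by gene, 11 of 13 were higher in FVB-uni than in FVB-sham, and 3 of 13 were higher in OVE-uni than in OVE-sham. Cat and Sod3 did not follow the split. The part of BioC in these sums was not tested.

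Smooth muscle cells and pericytes are cells in which Nox4 and Nox1 are also known. The median difference of their 9 expressed markers was 0.21 for OVE-sham over FVB-sham and 0.28 for OVE-uni over FVB-uni. In these pairs 9 and 6 of the 9 were higher. The part of these cells in the Nox4 values was not tested. In limma 0 passed for diabetes, with 4 at an unadjusted p below 0.05, against 7.85% of all expressed probe sets. Of 6 expressed podocyte markers 0 passed for diabetes in limma, with 1 at an unadjusted p below 0.05, against the same 7.85%. Their medians were -0.12 and -0.26. Of 4 expressed adipocyte markers 2 rose with diabetes in limma, Car3 (1.09) and Fabp4 (1.05), against 0.321% of all expressed probe sets called. With uninephrectomy 2 fell, Car3 (-2.45) and Adipoq (-2.66), against 0.0827% called. The list's summed signal was 13266 in OVE-uni and 26450 in OVE-sham, against 5405 in FVB-uni and 14568 in FVB-sham, and its median surgery difference was -1.60 in diabetic and -1.63 in nondiabetic mice.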
